A study of Mus musculus with 12 samples.

Results

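The genes described here are 7: the transcription factors Snai1, Snai2, Zeb1 and Zeb2, which drive epithelial-mesenchymal transition (EMT), the intermediate filament gene Vim, and the cadherins Cdh2 and Cdh11 of mesenchymal cells. They were chosen by symbol, and all 7 were found among the 57186 genes of the deposited count table. The tissue was breast tumour grown in mice from 4T1 cells, which derive from a mouse mammary carcinoma and stand in for triple-negative disease. In 6 tumours (Tn) the injected 4T1 cells carried a Cosmc gene silenced with CRISPR/Cas9, and in the other 6 (WT) they were the parental cells. Cosmc, listed as C1galt1c1, encodes a chaperone that the O-glycan-extending enzyme needs in order to fold, and cells without it display the truncated Tn antigen. Whether the silenced line is a single clone is not given in the sources used here. Tumours were taken across a range of sizes, the labels name 1 batch for all 12, and the RNA of whole tumour tissue was read, which holds injected cells together with cells of the mouse host.

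In EMT, epithelial cells loosen their junctions and take on a mobile, fibroblast-like state. Snail and Zeb proteins are zinc finger repressors that bind E-box letters in the promoters of junction genes such as Cdh1 and recruit corepressors there. A switch from E-cadherin to N-cadherin and a gain of vimentin are the classical marks of the change, but fibroblasts, pericytes, endothelial cells and macrophages of a tumour also express several of these genes without any transition.

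The targeted gene was measured first. C1galt1c1 averaged 11.3 ± 0.775 CPM in Tn and 19.6 ± 3.05 CPM in WT tumours (SD, n = 6 each), where CPM is the count as a share of the TMM-scaled library total, and the groups did not overlap (edgeR adjusted p = 0.000201). Library totals ranged from 113575859 to 156880766 counts. Of 19255 genes tested across all tumours, 3752 were higher and 3342 lower in Tn at an adjusted p under 0.05 by edgeR's quasi-likelihood fit, 36.8% in all. Epithelial genes, which carcinoma cells express but which keratinocytes can also express, were measured in every tumour. The mean log2 CPM of a list of 24 such genes ranged from 4.06 to 4.96 in Tn and from 4.52 to 5.89 in WT tumours. Tn tumour 4 stood apart by its B cell genes, Tn tumour 6 by keratinocyte genes and WT tumour 6 by adipocyte genes, as earlier results on these data had shown. Fold changes, counts of called genes and ratios were therefore also computed without these 3 libraries. The correlations between genes and with markers were not. WT tumour 1 was not among the 3, though it had the lowest adipocyte markers of the WT tumours. Its mean log2 CPM for them was -0.32, against 3.37 in WT tumour 2, the next lowest, and 6.66 in WT tumour 6.

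Of the 7 genes, 4 fell in Tn tumours, none rose, and 3 did not pass, where 17.4% of all tested genes fell and 19.5% rose. Those that fell were Cdh11 (34.5% of the WT level), Cdh2 (37.6%), Snai2 (54.8%) and Vim (75.1%). Snai1, Zeb1 and Zeb2 did not pass. The median log2 fold change over the 7 genes was -0.41, against 0.01 over all tested genes. Only Cdh11 had groups that did not overlap, which was so with Tn lower in 8.35% and with Tn higher in 8.81% of all tested genes, 17.2% in all. In whole tumours, fewer cells of a type and less RNA per cell cannot be told apart, and this holds for every gene below. Without the 3 libraries that stood apart, the same 4 genes passed.

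**Figure D1:**
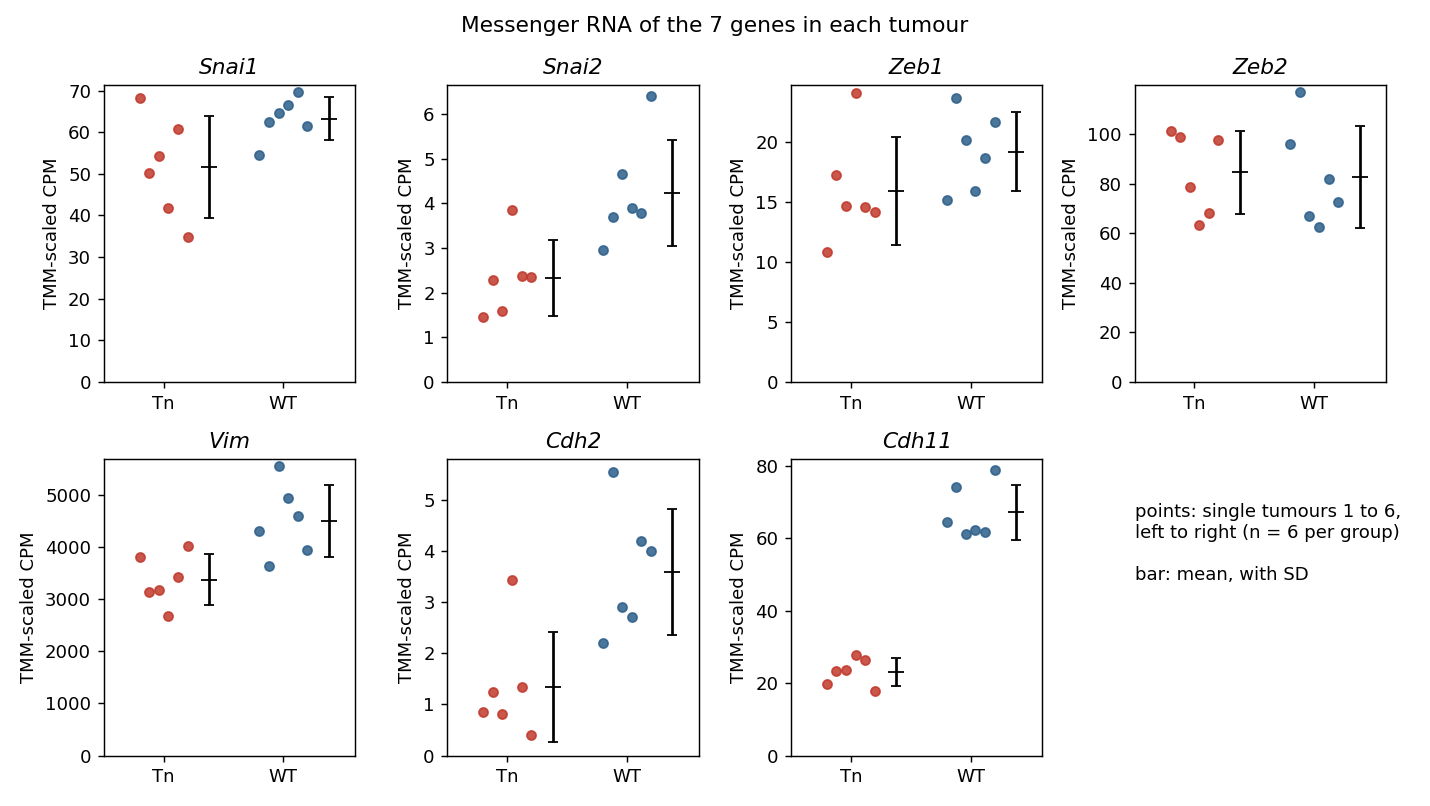
Level of each of the 7 genes in each tumour in TMM-scaled CPM (vertical axes, each from 0), with the 6 Tn tumours left of the 6 WT tumours and bars for mean and SD. Cdh11 shows Tn tumours between 17.9 and 27.9 CPM, all below the WT tumours at 61.2 to 78.9 CPM, while all Zeb2 points of Tn tumours lie inside the WT range.

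Snai1 encodes Snail, the founding repressor of the family and a short-lived protein controlled largely after transcription. Snai1 (ENSMUSG00000042821, GRCm39 chr2:167380115-167384734, plus strand) had 34.7, 52.3 and 68.2 CPM in Tn tumours (lowest, median and highest), against 54.5, 63.5 and 69.6 CPM in WT tumours. Of the Tn tumours 4 lay under the whole WT range, and the other 2, Tn tumours 1 and 5, lay within the WT range. The coefficient of variation was 23.7% among Tn and 8.16% among WT tumours. The log2 fold change was -0.29 ± 0.14 (SE, 95% interval -0.59 to 0.01), which did not pass (edgeR adjusted p = 0.120). Without Tn tumour 1 it passed at -0.38 (edgeR adjusted p = 0.0414), and without the 3 libraries it was -0.11 (edgeR adjusted p = 0.458).

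Snai2 encodes Slug, the second Snail family repressor, which basal mammary cells and fibroblasts also use. Snai2 (ENSMUSG00000022676, GRCm39 chr16:14523716-14527249, plus strand) had 1.45, 2.32 and 3.86 CPM in Tn tumours, against 2.96, 3.84 and 6.40 CPM in WT tumours. Only Tn tumour 4, the highest of its group, lay within the WT range, and the other 5 were lower than any WT tumour. Snai2 fell in Tn tumours, and its log2 fold change was -0.87 ± 0.25 (SE) with a 95% interval of -1.41 to -0.33 (edgeR adjusted p = 0.0170). With each tumour left out in turn the log2 fold change ran from -1.06 to -0.71 and passed each time, and without the 3 libraries it was -0.96 (edgeR adjusted p = 0.00702).

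Zeb1 encodes a zinc finger homeobox repressor that is itself held down by the miR-200 family in epithelial cells. Zeb1 (ENSMUSG00000024238, GRCm39 chr18:5591860-5775467, plus strand) had 10.8, 14.6 and 24.1 CPM in Tn tumours, against 15.2, 19.4 and 23.6 CPM in WT tumours. Tn tumour 4 was the highest of all 12 tumours, while 4 Tn tumours were lower than any WT tumour. The log2 fold change of -0.27 ± 0.18 (SE, 95% interval -0.65 to 0.11) did not pass (edgeR adjusted p = 0.247). Without Tn tumour 4 it passed, at -0.41 (edgeR adjusted p = 0.0386), but not without all 3 libraries that stood apart, at -0.37 (edgeR adjusted p = 0.114).

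Zeb2 encodes the paralog of Zeb1, which macrophages and other myeloid cells also use as an identity factor. Zeb2 (ENSMUSG00000026872, GRCm39 chr2:44873644-45007407, minus strand) had 63.4, 88.2 and 101 CPM in Tn tumours, against 62.4, 77.2 and 117 CPM in WT tumours. All 6 Tn tumours lay within the WT range. The log2 fold change was 0.03 ± 0.17 (SE, 95% interval -0.34 to 0.40, edgeR adjusted p = 0.900), and its sign changed with the scaling, at -0.026 under upper-quartile scaling, and with the tumour left out, from -0.038 to 0.16. Zeb2os, an antisense transcript that shares 653 bases or 3.23% of the Zeb2 exons, rose in Tn tumours (1.80 ± 0.380 CPM in Tn and 0.905 ± 0.201 CPM in WT tumours, SD, n = 6 each, edgeR adjusted p = 0.00237). Counting ignored strand, so reads of Zeb2 and Zeb2os over these bases cannot be told apart, and the same holds for 198 bases, or 1.93%, of the Zeb1 exons shared with Zeb1os1.

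Vim encodes vimentin, the type III intermediate filament of mesenchymal cells, which macrophages, endothelial cells and carcinoma lines in culture also make in quantity. Vim (ENSMUSG00000026728, GRCm39 chr2:13578738-13587637, plus strand) had 2678, 3306 and 4024 CPM in Tn tumours, against 3628, 4457 and 5549 CPM in WT tumours. All 6 Tn tumours lay below the WT median and 4 were lower than any WT tumour, with Tn tumours 1 and 6 inside the WT range. Vim fell in Tn tumours by 0.41 ± 0.12 on the log2 scale (SE, 95% interval of the log2 fold change -0.68 to -0.15, edgeR adjusted p = 0.0180). With each tumour left out in turn the log2 fold change ran from -0.47 to -0.34 and passed each time, and without the 3 libraries it was -0.43 (edgeR adjusted p = 0.0282).

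Cdh2 encodes N-cadherin, the classical cadherin of neurons, fibroblasts and pericytes that replaces E-cadherin in the textbook switch. Cdh2 (ENSMUSG00000024304, GRCm39 chr18:16721934-16942303, minus strand) was sparse, with 0.401, 1.06 and 3.42 CPM in Tn tumours, against 2.20, 3.44 and 5.53 CPM in WT tumours. Its lowest value, in Tn tumour 6, rested on 54 counts. Tn tumour 4 was the single Tn tumour within the WT range, and the other 5 were lower than any WT tumour. Cdh2 fell in Tn tumours, and its log2 fold change was -1.41 ± 0.44 (SE) with a 95% interval of -2.36 to -0.46 (edgeR adjusted p = 0.0242). The call was lost without Tn tumour 1 (-1.31, edgeR adjusted p = 0.0530), without Tn tumour 3 (-1.30, edgeR adjusted p = 0.0502) and without WT tumour 2 (-1.23, edgeR adjusted p = 0.0554), and without Tn tumour 4 the log2 fold change was -1.93 (edgeR adjusted p = 0.00126). DESeq2 gave -1.41 (adjusted p = 0.00333) and limma voom -1.59 (adjusted p = 0.00287).

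Cdh11 encodes cadherin-11, a type II cadherin of osteoblasts and fibroblasts. Cdh11 (ENSMUSG00000031673, GRCm39 chr8:103358727-103512274, minus strand) had 17.9, 23.5 and 27.9 CPM in Tn tumours, against 61.2, 63.3 and 78.9 CPM in WT tumours. The highest Tn tumour lay far below the lowest WT tumour. The coefficient of variation was 16.5% among Tn and 11.2% among WT tumours. Cdh11 fell in Tn tumours, and its log2 fold change was -1.53 ± 0.11 (SE) with a 95% interval of -1.78 to -1.29 (edgeR adjusted p = 7.20e-06). Over all alternatives run the log2 fold change stayed between -1.59 and -1.46 and passed.

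The order of the tumours differed from gene to gene. Tn tumour 4 had the highest Snai2, Zeb1, Cdh2 and Cdh11 of the Tn tumours but their lowest Vim and Zeb2. Tn tumour 6 had the lowest Snai1, Cdh2 and Cdh11 of the Tn tumours and their highest Vim. Among WT tumours, WT tumour 2 had the highest Zeb1, Zeb2 and Cdh2 and the lowest Vim, and WT tumour 3 the highest Vim and the lowest Cdh11. WT tumour 6 had the highest Snai2 and Cdh11 of the whole set. Cdh2 varied most among the Tn tumours, with a coefficient of variation of 79.6% in Tn and 34.1% in WT tumours, and Vim varied least among them, at 14.4% in Tn and 15.4% in WT tumours.

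Per length, as mean CPM per kilobase of exons, Vim stood far above the other genes, at 711 ± 103 in Tn and 948 ± 146 in WT tumours (SD, n = 6 each). Snai1 came second, at 31.9 ± 7.55 in Tn and 39.0 ± 3.18 in WT tumours. Zeb2 was at 4.19 ± 0.829 in Tn and 4.10 ± 1.02 in WT tumours. Cdh11 was at 2.60 ± 0.430 in Tn tumours, below Zeb2 by more than the SDs of both, and at 7.54 ± 0.846 in WT tumours, above Zeb2. The order of these genes therefore differed between the groups. Zeb1 (1.55 ± 0.437 in Tn and 1.87 ± 0.320 in WT tumours) and Snai2 (1.15 ± 0.422 in Tn and 2.09 ± 0.591 in WT tumours) differed by less than either SD in both groups. Cdh2 was lowest, at 0.167 ± 0.133 in Tn and 0.445 ± 0.152 in WT tumours. The length is that of all annotated exons of a gene, which can exceed that of the transcript in use.

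**Figure D2:**
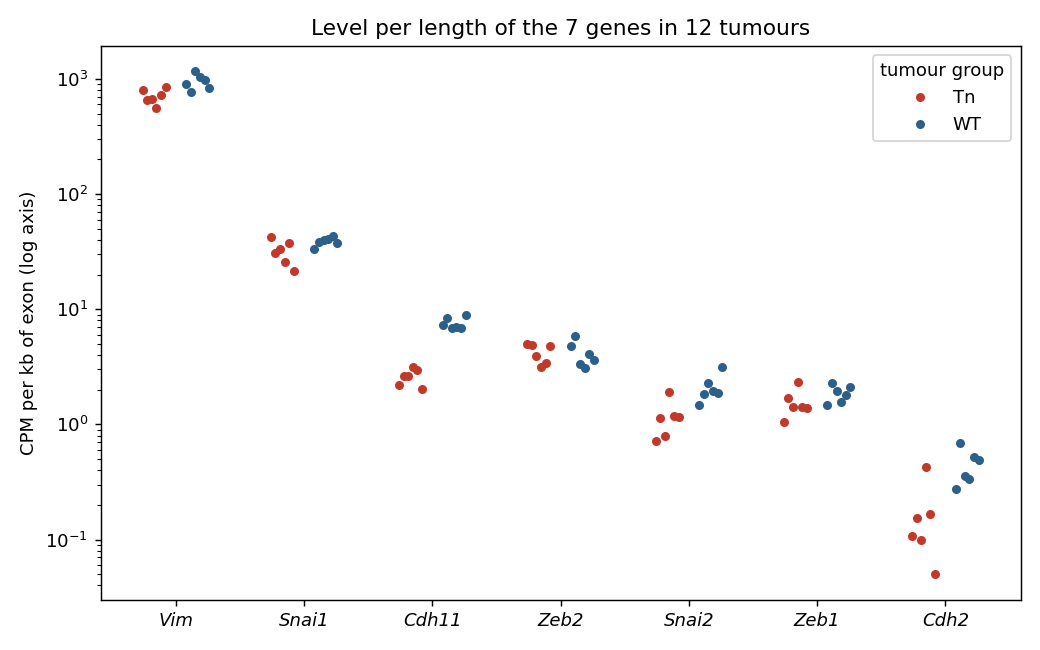
Level of each gene per kilobase of exons (log axis, CPM per kilobase), with a point for each of the 6 Tn and, to their right, each of the 6 WT tumours. Vim is highest and Cdh2 lowest in both groups, and Cdh11 lies below Zeb2 in Tn tumours but above it in WT tumours.

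Ratios of 2 genes inside a tumour do not depend on library scaling, and 5 were set up: each cadherin against Cdh1 (E-cadherin, the epithelial junction cadherin), Vim against Epcam (an epithelial adhesion protein), and each factor against its paralog. The log2 ratio of Cdh11 over Cdh1 averaged -3.35 ± 0.55 in Tn and -2.09 ± 0.69 in WT tumours (SD, n = 6 each). No Tn tumour reached the WT range, and the difference was -1.25 (exact two-sided permutation test over all regroupings of 6 against 6, p = 0.00216, the smallest it can give; adjusted over the 5 ratios p = 0.0108). The log2 ratio of Cdh2 over Cdh1 averaged -7.73 ± 1.08 in Tn and -6.37 ± 1.03 in WT tumours. Its difference of -1.35 did not pass after adjustment (exact permutation p = 0.0346, adjusted p = 0.0866). Without Tn tumour 4 that difference was -1.62 and passed (exact permutation adjusted p = 0.0216). Cdh1 itself had 134, 239 and 379 CPM in Tn tumours, against 121, 342 and 371 CPM in WT tumours, and its log2 fold change of -0.29 ± 0.29 (SE) did not pass (edgeR adjusted p = 0.470). E-cadherin mRNA thus showed overlapping levels in both groups, and its lowest value was in WT tumour 2.

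The log2 ratio of Vim over Epcam averaged 4.18 ± 1.12 in Tn and 3.64 ± 0.86 in WT tumours (SD, n = 6 each), and the difference of 0.54 did not pass (exact permutation adjusted p = 0.396). With each tumour left out in turn it ran from 0.23 to 0.86 and did not pass. Epcam had 71.8, 202 and 408 CPM in Tn tumours, against 94.6, 461 and 604 CPM in WT tumours, and its log2 fold change of -0.89 ± 0.47 (SE) did not pass (edgeR adjusted p = 0.157). The log2 ratio of Zeb2 over Zeb1 averaged 2.43 ± 0.61 in Tn and 2.09 ± 0.36 in WT tumours and did not pass (difference 0.34, exact permutation adjusted p = 0.346). Leaving out each tumour in turn gave differences of 0.18 to 0.54, with adjusted p from 0.0541 to 0.660. The log2 ratio of Snai2 over Snai1 averaged -4.51 ± 0.77 in Tn and -3.93 ± 0.36 in WT tumours and did not pass (difference -0.57, exact permutation adjusted p = 0.220). Without Tn tumour 4 the Snai2 over Snai1 difference was -0.79 (exact permutation adjusted p = 0.0433). It was -0.86 with the 3 libraries left out (exact permutation adjusted p = 0.0397) and so passed in both settings. With all tumours, Cdh11 over Cdh1 was the 1 ratio of the 5 that passed.

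**Figure D3:**
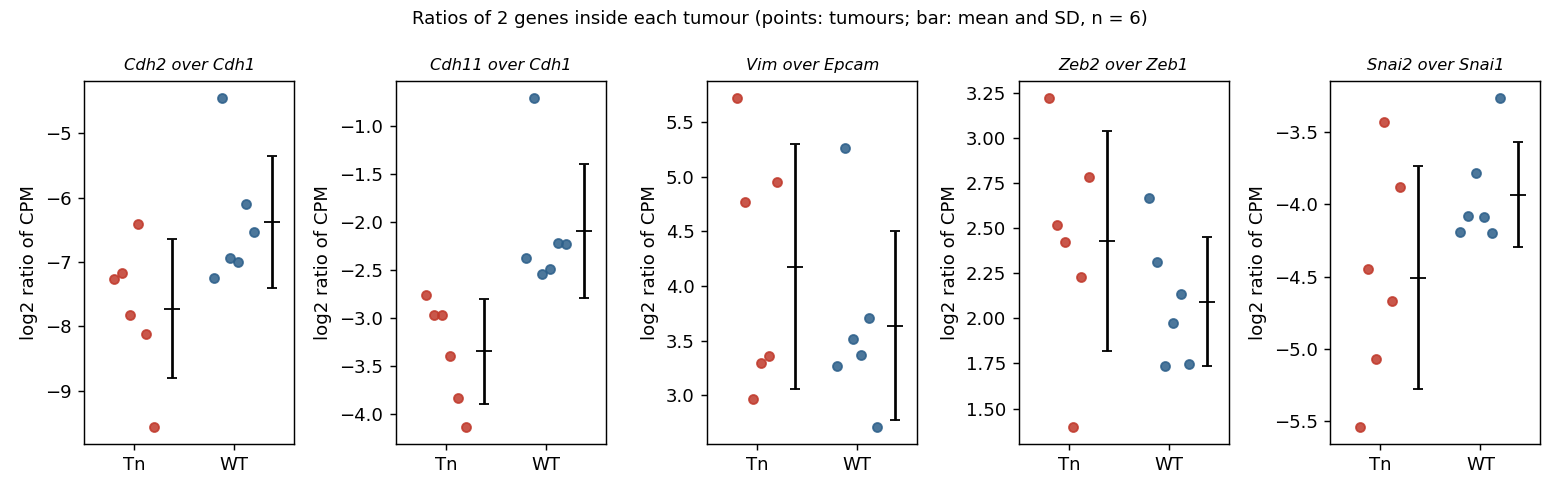
Log2 ratio of 2 genes inside each tumour (vertical axes, not starting at 0), with Tn tumours left of WT tumours and bars for mean and SD over 6 tumours. The Cdh11 over Cdh1 panel shows all Tn tumours below all WT tumours, and WT tumour 2 alone near -0.70.

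Other factors that drive EMT did not move one way. Of 15 such genes 14 were tested, 4 rose, 4 fell and 6 did not pass, with a median log2 fold change of -0.14. Prrx1, a homeobox factor of mesenchyme, had 28.1 ± 7.50 CPM in Tn and 80.8 ± 13.3 CPM in WT tumours (SD, n = 6 each; log2 fold change -1.52 ± 0.16, SE, edgeR adjusted p = 6.06e-05). Its paralog Prrx2 (log2 fold change -1.95 ± 0.29) and the Krüppel-like factor Klf8 (-2.31 ± 0.37, and -3.03 without the 3 libraries) fell as well. Foxc2, a forkhead factor of EMT and of vessels, rose, at 57.5 ± 9.40 CPM in Tn and 32.0 ± 3.64 CPM in WT tumours (log2 fold change 0.85 ± 0.11, SE, edgeR adjusted p = 0.000197). Foxq1, Sox9 and Foxc1 rose and Twist2 fell, named here after their values were seen. Twist1, a basic helix-loop-helix factor of EMT also named after its values were seen, had 54.8, 67.9 and 90.1 CPM in Tn tumours, against 51.8, 60.7 and 66.4 CPM in WT tumours, and did not pass (log2 fold change 0.24, edgeR adjusted p = 0.103).

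Of 13 genes for the corepressors and for the enzymes that control Snail protein, 1 rose, 4 fell and 8 did not pass, with a median log2 fold change of -0.08. Beside this list and the TGF-beta list below stands the share of all tested genes that passed, 36.8%. Hdac1, a histone deacetylase, rose at 114 ± 9.39 CPM in Tn and 86.1 ± 6.12 CPM in WT tumours (log2 fold change 0.41 ± 0.07, SE, edgeR adjusted p = 0.000768). Gsk3b, the kinase that marks Snail for degradation, fell by 0.32 ± 0.06 on the log2 scale. Ctbp2, a corepressor of the Zeb factors, fell by 0.49 ± 0.10, and Rcor1, the CoREST scaffold, by 0.40 ± 0.08. Pak1, a kinase that acts on Snail, was the remaining gene that fell, named after its values were seen. Of 14 genes of TGF-beta signalling, the best known inducer of these factors, 1 rose, 2 fell and 11 did not pass, with a median of 0.07, and 5 passed by DESeq2 or limma voom. Tgfbr3, the coreceptor betaglycan, rose (log2 fold change 1.30 ± 0.20), and Inhba, which encodes an activin subunit (-0.95 ± 0.18), and Smad4, the common signal carrier (-0.25 ± 0.07), fell. The call of Smad4 was lost without the 3 libraries (-0.24, edgeR adjusted p = 0.0671). The 5 genes of the miR-200 family were all below the filter, which in libraries of poly(A) RNA says nothing about the mature miRNAs.

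Most mesenchymal genes other than the 7 were lower in Tn tumours as well. Of 16 such genes 15 were tested, 1 rose, 11 fell and 3 did not pass, with a median log2 fold change of -1.50. Tnc, which encodes the matrix protein tenascin-C, had 407 ± 127 CPM in Tn and 2034 ± 209 CPM in WT tumours (SD, n = 6 each; log2 fold change -2.32 ± 0.18, SE, edgeR adjusted p = 8.28e-06). Loxl2, a lysyl oxidase (log2 fold change -1.98 ± 0.26), Mmp2, a gelatinase (-1.65 ± 0.23), and Sparc, a matricellular protein (-1.28 ± 0.13), also fell, with no overlap between the groups. Fn1, which encodes fibronectin, was the gene that rose, named after its values were seen, at 13604 ± 5638 CPM in Tn and 8010 ± 1608 CPM in WT tumours (edgeR adjusted p = 0.0304). Of 9 genes for related intermediate filaments and their linkers 7 were tested, none rose, 4 fell and 3 did not pass, with a median of -0.51, and 2 passed without the 3 libraries. Nes, which encodes nestin, a filament partner of vimentin, was the clearest of them (log2 fold change -1.05 ± 0.18).

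Of 24 genes of epithelial junctions and identity, 1 rose, 6 fell and 17 did not pass, with a median log2 fold change of -0.33, where 36.8% of all tested genes passed. The number that passed depended on the tool, with 12 by limma voom. Grhl2, an activator of Cdh1 and an opponent of Zeb1, had 18.8 ± 5.81 CPM in Tn and 46.9 ± 5.03 CPM in WT tumours (SD, n = 6 each; log2 fold change -1.31 ± 0.20, SE, edgeR adjusted p = 0.000472). Cldn3, a tight junction claudin, fell too (log2 fold change -2.07 ± 0.40), as did Elf3, an epithelial ETS factor (-0.68 ± 0.15). Marveld3, a tight junction protein, was the gene that rose (0.99 ± 0.21). Of 15 other cadherins 8 were tested, 2 rose, 3 fell and 3 did not pass, with a median of -0.41. Cdh5, the cadherin of endothelium (log2 fold change -0.74 ± 0.17), Cdh13, a membrane-anchored cadherin (-0.51 ± 0.13), and Cdh10, which was below 1 CPM on average (-2.90 ± 0.36), fell, while Cdh15, the cadherin of muscle, rose (2.97 ± 0.66, and 2.30 without Tn tumour 5). Cdh24 was the other one that rose, named after its values were seen. Of 8 genes for catenins and their partners, which tie cadherins to actin, 7 were tested, none rose, and 2 fell, Afdn (-0.56 ± 0.08) and Vcl (-0.41 ± 0.10), where limma voom called 4.

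**Figure D4:**
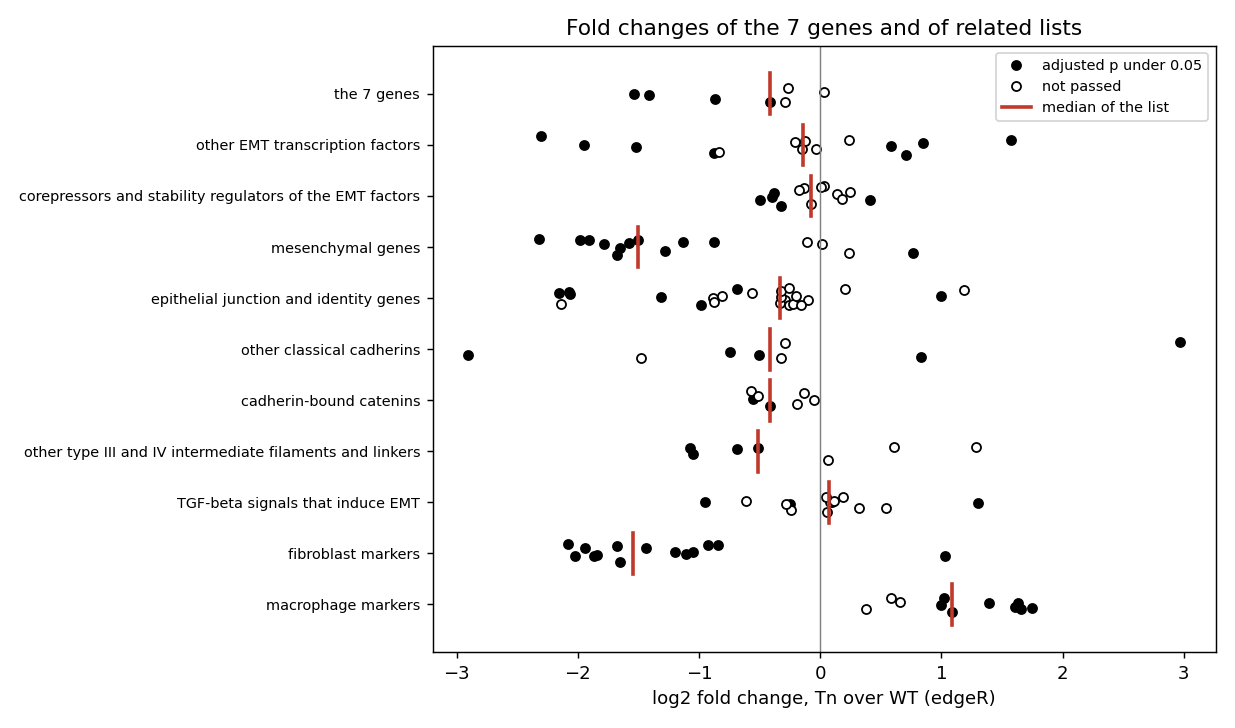
Log2 fold change, Tn over WT, of each tested gene (horizontal axis) for the 7 genes and for related lists (rows), filled where the edgeR adjusted p was under 0.05, with a red bar at the median of each list. The medians lie at -0.41 for the 7 genes, -1.50 for mesenchymal genes, -0.33 for epithelial genes and -1.55 for fibroblast markers.

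Several of these epithelial genes are textbook targets of Snail and Zeb proteins, so their promoters were searched for the E-box letters CAGGTG and CACCTG, which are each other's reverse complement and so cover both strands. The windows, from RefSeq (GRCm38.p6), run from 250 bases before to 50 bases after a gene's start. Below are the 1 window of the 7 genes that holds the letters and 3 of epithelial genes, with the letters in capitals; Epcam is the partner in a ratio above, Cldn3 fell, and Crb3, a polarity gene named after its promoter was searched and its values were seen, holds the letters 4 times.
Snai1, chr2:167537945-167538244, plus strand: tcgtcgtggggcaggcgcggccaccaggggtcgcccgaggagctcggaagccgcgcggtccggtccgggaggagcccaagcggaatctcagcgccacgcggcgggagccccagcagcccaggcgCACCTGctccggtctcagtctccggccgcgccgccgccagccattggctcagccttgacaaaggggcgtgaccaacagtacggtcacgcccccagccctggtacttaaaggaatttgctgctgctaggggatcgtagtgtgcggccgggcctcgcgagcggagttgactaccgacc
Epcam, chr17:87635729-87636028, plus strand: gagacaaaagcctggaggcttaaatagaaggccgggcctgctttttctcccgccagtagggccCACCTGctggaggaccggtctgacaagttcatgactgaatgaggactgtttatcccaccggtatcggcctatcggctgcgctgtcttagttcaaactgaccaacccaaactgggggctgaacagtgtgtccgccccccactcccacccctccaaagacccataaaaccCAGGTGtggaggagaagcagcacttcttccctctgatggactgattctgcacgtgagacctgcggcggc
Cldn3, chr5:134985964-134986263, plus strand: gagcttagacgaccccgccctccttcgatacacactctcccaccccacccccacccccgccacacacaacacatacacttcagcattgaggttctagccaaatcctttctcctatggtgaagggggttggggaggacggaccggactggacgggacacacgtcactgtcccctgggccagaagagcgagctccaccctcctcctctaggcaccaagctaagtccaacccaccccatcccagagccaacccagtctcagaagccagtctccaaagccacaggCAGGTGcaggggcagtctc
Crb3, chr17:57061951-57062250, plus strand: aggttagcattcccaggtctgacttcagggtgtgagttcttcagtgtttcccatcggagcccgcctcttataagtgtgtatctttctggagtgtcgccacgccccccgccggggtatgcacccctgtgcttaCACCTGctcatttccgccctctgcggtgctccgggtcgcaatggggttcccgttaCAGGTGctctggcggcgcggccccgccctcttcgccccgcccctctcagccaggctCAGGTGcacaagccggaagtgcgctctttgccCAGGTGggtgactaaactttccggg

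Of the 7 genes 3 had a window. The Snai1 window holds CACCTG once, starting 126 bases before the start, and the Vim and Zeb2 windows hold neither form. Of the 24 epithelial genes 15 had a window and 13 of these, 86.7%, hold the letters, against 22.6% of all 27025 genes with a window. Cdh1 and Grhl2 were among the epithelial genes without a window and could not be searched. Ovol2 and Tjp1, named after their values were seen, were the epithelial genes without them. Among 8 mesenchymal genes with a window 2 hold the letters, and among 9 other EMT factors none does. Of the 13 epithelial genes with the letters 2 fell, Cldn3 and Elf3, and of the 2 without them 1 fell, Ovol2. None of the 15 rose. Over all tested genes 17.4% fell and 19.5% rose, and a link of the letters with direction was not tested. A match is a description of the sequence and not a bound site, and base composition was not matched.

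Within the groups, some of the 7 genes varied together and some opposite to each other. Each tumour was expressed as its deviation from the mean log2 CPM of its own group, and the 21 pairs of genes were correlated over the 12 tumours, with permutation within groups and adjustment over the 21. Vim and Cdh11 ran opposite to each other, with Pearson r = -0.83 (permutation p = 0.00184, adjusted p = 0.0386) and Spearman rho = -0.88 (permutation p = 0.00068, adjusted p = 0.0143). Leaving out the 2 tumours farthest from the median of Vim gave r = -0.81, and r was -0.86 within Tn and -0.83 within WT tumours. Cdh2 and Cdh11 deviated in the same direction, with r = 0.80 (permutation p = 0.00513, adjusted p = 0.0467) and rho = 0.66 (permutation p = 0.0384, adjusted p = 0.134), and without the 2 farthest tumours r was 0.58. Snai2 and Zeb1 had r = 0.78 (permutation p = 0.00890, adjusted p = 0.0467) and rho = 0.61 (permutation p = 0.05005, adjusted p = 0.150), and r was 0.59 without the 2 farthest tumours. Vim and Cdh2 had r = -0.74 (permutation p = 0.00724, adjusted p = 0.0467) and rho = -0.58 (permutation p = 0.0658, adjusted p = 0.173), and r was -0.71 without the 2 farthest tumours. Of these 4 pairs, Vim with Cdh11 was the one that passed by both measures. Snai1 passed with none of the other 6 genes.

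**Figure D5:**
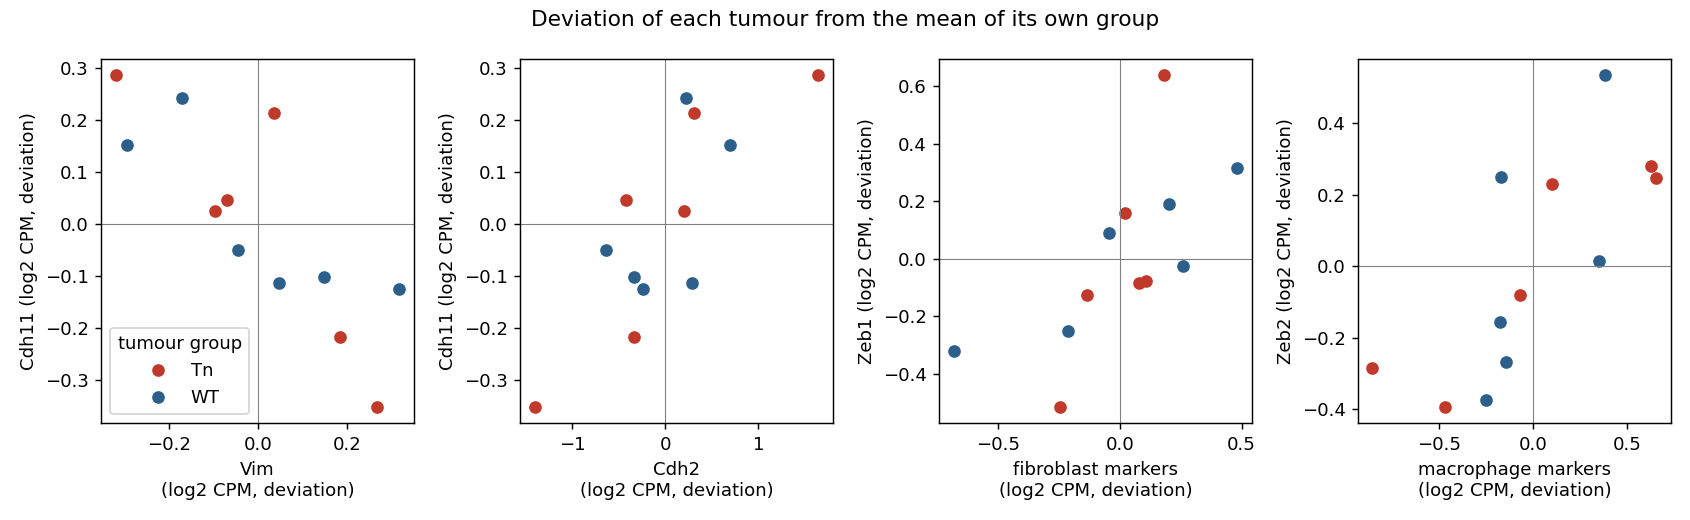
Deviation of each tumour from the mean of its own group in log2 CPM, for Cdh11 against Vim and against Cdh2, Zeb1 against fibroblast markers and Zeb2 against macrophage markers, with Tn and WT tumours as separate colours. Cdh11 is lower where Vim is higher in both groups (r = -0.83 over 12 tumours), and the panels with markers slope upward (r = 0.69 for Zeb1 and 0.75 for Zeb2).

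Markers of other cell types moved between the groups beside these genes. Of 14 fibroblast markers 13 fell and 1 rose, and their summed level ran from 3414 to 4901 CPM in Tn and from 8235 to 20951 CPM in WT tumours. None of the 14 was at 0 in all tumours, and Lrrc15, a marker of tumour fibroblasts, had 33.7, 50.8 and 69.6 CPM in Tn tumours, against 175, 201 and 278 CPM in WT tumours (edgeR adjusted p = 2.09e-05). Pdgfra was the marker that rose, named after its values were seen. Of 10 pericyte and smooth muscle markers 8 fell and 2 did not pass, with a summed level of 206 to 510 CPM in Tn and 490 to 900 CPM in WT tumours, and of 10 endothelial markers 7 fell and 3 did not pass (237 to 474 CPM in Tn and 345 to 604 CPM in WT tumours), where 4 passed without the 3 libraries. Of 11 macrophage markers 8 rose and 3 did not pass, with a summed level of 1958 to 6084 CPM in Tn and 1377 to 2106 CPM in WT tumours, and all 10 T and natural killer cell markers rose (55.9 to 348 CPM in Tn and 5.99 to 26.6 CPM in WT tumours). The fibroblast, pericyte and endothelial markers thus fell beside Snai2, Vim, Cdh2 and Cdh11, and their part in the lower levels of these genes was not tested.

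The deviations of the 7 genes were also set against those of 11 marker lists, 77 relations in all, and none passed after adjustment. The relations with the smallest p were Zeb1 with fibroblast markers (r = 0.69, rho = 0.81, permutation adjusted p = 0.0616 for r and 0.0952 for rho), Cdh2 with fibroblast markers (r = 0.61, rho = 0.74, permutation adjusted p = 0.0616 and 0.0952), and Cdh2 with pericyte and smooth muscle markers (r = 0.79, rho = 0.80, permutation adjusted p = 0.0616 and 0.0952). Zeb2 went with macrophage markers at r = 0.75 and rho = 0.81 (permutation adjusted p = 0.0841 and 0.0952), with r = 0.90 within Tn and 0.67 within WT tumours. Without the 2 farthest tumours r was 0.81 for Zeb1 and 0.85 for Cdh2 with fibroblast markers, 0.69 for Cdh2 with pericyte markers and 0.71 for Zeb2 with macrophage markers. Vim deviated opposite to fibroblast markers, at r = -0.48 and rho = -0.60 (permutation adjusted p = 0.321 and 0.235), which did not pass. Snai2 and Cdh11 had r = 0.43 and 0.51 with the same markers, and these did not pass either. Their r was higher with pericyte and smooth muscle markers, at 0.76 for Snai2 and 0.82 for Cdh11. Neither passed (permutation adjusted p = 0.113 for each r), and without the 2 farthest tumours r was 0.58 and 0.73.

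The genes whose deviations were most like those of each member were sought among 12964 genes with a mean of at least 1 CPM over the 12 tumours, as a description with no test. For Snai1 they were Ptgis, Gpr153 and Ackr3 (Pearson r 0.91, 0.90 and 0.89), and for Snai2 Parm1, Fam174b and Kazn (0.96, 0.93 and 0.93). For Zeb1 they were Tmem64, Gxylt2 and Syt15 (0.95, 0.92 and 0.92), and for Zeb2 Pkn2, Dab2 and Rab7b (0.94 each). For Vim they were Abhd14b, Dnajc4 and Snx15 (0.97, 0.96 and 0.94), for Cdh2 Ildr2, Clip3 and Pknox2 (0.96, 0.95 and 0.95), and for Cdh11 Prpf4, Trpc6 and Myo5b (0.91, 0.88 and 0.88). Likeness inside the groups did not fix the direction of the contrast. Dnajc4 rose in Tn tumours (log2 fold change 0.51, edgeR adjusted p = 0.00168) where Vim fell, and Prpf4 did not pass (-0.11, edgeR adjusted p = 0.280) where Cdh11 fell, while Clip3 fell with Cdh2 (-1.35, edgeR adjusted p = 0.000849) and Kazn fell with Snai2 (-1.47, edgeR adjusted p = 0.00294).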

How the data were processed

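Per the labels, RNA of tumours with an RNA integrity number above 7 was made into stranded poly(A) libraries. Per the submitters' processing notes, fastp 0.23 trimmed the reads, STAR 2.7.11a aligned them and featureCounts (Subread 2.1.1) counted them. The authors deposited raw counts: per the file headers these are reads over the exons of each Ensembl 112 gene on GRCm39, with strand ignored and both mates required. Low counts (up to 20) were even numbers at a rate of 66.4% to 72.5%, so most pairs added 2 counts and counting error is larger than the counts imply. The deposited exon length, a column in bases, was used for levels per kilobase.

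All 12 tumours, 6 per group, were fitted with edgeR 4.0.16 in R 4.3.3 (filterByExpr by group, TMM scaling, robust quasi-likelihood F test, two-sided, Benjamini-Hochberg over 19255 genes, threshold 0.05). Log2 fold changes are Tn over WT. SE is the log2 fold change over the root of F. Log2 CPM for ratios and correlations used a prior count of 2, and correlations used 100000 permutations within groups. The labels call the tumours separate samples. Library pairs within a group differed beyond sampling noise (chi-square per degree of freedom at least 41.4).

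The 7 genes, the lists and the tests were chosen with earlier results of these data known. Named genes were the 7, C1galt1c1, ratio partners, overlapping genes, up to 4 genes with the smallest p per pathway list and 2 per cell type list, and the 3 most alike per member. Others are marked as named after their values were seen. A simulation of this comparison on 18976 genes recovered 56% of the genes changed 1.5-fold, 72% of those changed 2-fold and 96% of those changed 4-fold. It made 4 false calls. It changed only a small part of the genes, all with a mean of at least 1 CPM, where 36.8% of the tested genes passed in these tumours. An adjusted p under the threshold was thus harder to reach in it, and its rates need not hold for these tumours. The alternatives tried were upper-quartile and RLE scaling, DESeq2 1.42.0, limma 3.58.1 voom with quality weights, other filters, a threshold of 0.01, the replicate block, a prior count of 0.5, and tumours left out. All Tn libraries carry lower numbers in their names than all WT libraries, and an effect of that order and the group cannot be told apart.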

Additional observations from a re-analysis of the deposited data

Results flagged for a closer look

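Of 24 groups of 6 tumours examined, 2 held a tumour set apart from the others of its group by a gap above Dixon's critical value, which chance gives in about 1 of 20 groups. Cdh2 in Tn tumour 4 was at 3.42 CPM, and the nearest of the other Tn tumours was at 1.34 CPM. The log2 ratio of Cdh11 over Cdh1 in WT tumour 2 was -0.70, and the nearest of the other WT tumours was at -2.22. In both cases the tumour lay above its group.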

How the results depend on the processing

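At an adjusted p of 0.05, Cdh11 and Snai2 kept their direction and passed in each of the 20 alternatives computed for them, and Vim in 19 of 20, the exception being the replicate block. Zeb2 turned to -0.026 with upper-quartile scaling and -0.0125 with a mean CPM of at least 1. With each tumour left out in turn, log2 fold changes ran from -0.38 to -0.20 for Snai1, -0.41 to -0.18 for Zeb1, -0.038 to 0.16 for Zeb2 and -1.93 to -1.22 for Cdh2, from -1.61 to 2.68 for Krt10 and -3.22 to 2.34 for Dsg3, and the ratio differences from -1.62 to -0.97 for Cdh2 over Cdh1 and -0.79 to -0.37 for Snai2 over Snai1, which was -0.86 without the 3 libraries. A threshold of 0.01 left 4025 genes, 2109 higher and 1916 lower, because it is stricter, and Snai2, Vim and Cdh2 (adjusted p = 0.0170, 0.0180 and 0.0242) lie above it.

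The replicate numbers did not pair the tumours: deviations of same-numbered tumours correlated at -0.12 to 0.16, over 0.1 in 2 of 6 pairs, and 1 tumour correlated best with its own number. With the replicate block 5876 genes passed. Vim was then at -0.41 (edgeR adjusted p = 0.0510), and the Cdh11 over Cdh1 difference of -1.25 had an adjusted p of 0.156 by exact sign flips. The smallest unadjusted p that sign flips of 6 pairs can give is 0.0313. No Tn tumour reached the WT range in this ratio, so its unadjusted p was at that floor. A ratio at the floor passes the adjustment over 5 ratios only when others come near it too. The adjusted p of 0.156 therefore does not show a weaker difference. The block also gave -1.43 for Dsg3 and no called adipocyte, B cell or Schwann cell marker (0 each).

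Among keratinocyte markers, none of which passed, Krt10 turned to -0.17 with voom and -0.31 without the 3 libraries, and Dsg3 to -2.11 and -2.20. Voom called 12 epithelial genes, 4 catenins, 5 TGF-beta genes, 0 B cell and 2 neutrophil markers, and DESeq2 called 5 TGF-beta genes and 2 Schwann cell markers. Without the filter 3 B cell, 1 adipocyte and 0 Schwann cell markers passed. Without the 3 libraries 2 filament genes, 4 endothelial, 3 B cell, 6 neutrophil, 1 adipocyte and 0 Schwann cell markers passed. With each tumour left out the called genes ran from 2 to 4 for catenins and for filaments, 3 to 6 for TGF-beta genes and B cell markers, 1 to 4 for neutrophil, 1 to 5 for adipocyte and 0 to 3 for Schwann cell markers. The cause of these shifts was not tested. Changes of 1.5-fold were recovered less often than larger ones in simulated counts, so small changes of Snai1, Zeb1 and Zeb2 may be missed. The rate for these tumours was not tested.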

Other observations

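Marker lists not described above gave these counts. Of 5 tested B cell markers all rose, with summed levels of 6.08 to 1788 CPM in Tn and 4.12 to 14.3 CPM in WT tumours and the highest in Tn tumour 4. The log2 fold changes of 4.33 for Ighm and 6.79 for Pax5 were 2.13 and 1.61 without that tumour. Without Tn tumour 4 or without the 3 libraries, 3 B cell markers passed. Of 8 neutrophil markers 1 fell, Mmp9 (-2.20), and Csf3r did not pass (0.55). Of 7 adipocyte markers 2 fell, Lep (-3.00) and Pparg (-1.71), which without WT tumour 6 were at -2.34 and -1.06. Pparg lost its call in 7 of 20 alternatives, WT tumour 6 left out among them (edgeR adjusted p = 0.0638). Of 7 Schwann cell and nerve markers 1 fell, Sox10 (-2.59), which lost its call in 11 of 20 alternatives (adjusted p up to 0.243), while S100b did not pass (-0.98). No skeletal muscle or keratinocyte marker passed, with Ttn at 1.20, Mylpf at 0.73, Krt10 at 1.63 and Dsg3 at 1.43.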
